A study of Mus musculus with 64 samples.

Results

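The 10 genes described here encode proteins with which astrocytes take up glutamate, move water, potassium and bicarbonate, and couple to one another, together with 2 enzymes that are used as general astrocyte markers. They were picked by name (Slc1a2, Slc1a3, Glul, Aqp4, Kcnj10, Slc4a4, Gja1, Gjb6, Aldh1l1 and Aldoc), matched through their Ensembl identifiers, and all 10 were among the 18432 genes of the table and passed the filter on low values in each comparison. RNA was sequenced from the frontal cortex and hippocampus of C57BL/6N mice heterozygous for a knock-in (KI) of the R87C substitution into the Cyfip2 gene, which encodes a regulator of actin assembly, and of their wild-type (WT) littermates. The mice were sampled at postnatal week (PWK) 1, 7, 14 and 28. Each of the 16 groups of region, age and genotype held 4 libraries, 1 per mouse, and both regions were dissected from the same mice. The samples are pieces of tissue holding many cell types, so fewer astrocytes and less RNA per astrocyte cannot be told apart in any value below.

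Values are normalized counts, estimated reads per gene that the authors scaled between libraries, and the library totals ranged from 29225576 to 32601227 around a median of 31051098. Differences are given on a log2 scale with their standard error (SE) from limma, and a gene is said to rise or fall where its Benjamini-Hochberg adjusted p over all genes tested was under 0.05. The edited gene was present in both genotypes, and at PWK 28 in cortex Cyfip2 read 21597, 30055, 26765 and 24490.4 in KI against 34022, 35187, 35279 and 34418 in WT libraries. The 11 neuronal markers summed to between 227153 and 348779 in the 64 libraries, and none of the 11 was at 0 in a whole group. Markers of choroid plexus and ependyma were uneven in the hippocampus, where their sum ran from 2398 to 106088 in WT and from 2628 to 99964 in KI libraries at PWK 14. In the cortex at PWK 28 the sum of these markers was also uneven, from 544 to 21836 in WT and from 574 to 1219 in KI libraries. KI replicate 1 at PWK 14 stood apart from the other libraries of its group for Aqp4 in both regions and for Kcnj10 in hippocampus. Results that rest on it are also given without it.

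Astrocytes clear glutamate from synapses with the transporters GLT-1 (Slc1a2) and GLAST (Slc1a3) and turn it into glutamine with glutamine synthetase (Glul). Their endfeet on blood vessels carry the water channel aquaporin-4 (Aqp4) and the inward rectifier potassium channel Kir4.1 (Kcnj10), which takes part in removing potassium released by active neurons, and the sodium bicarbonate cotransporter NBCe1 (Slc4a4) helps to set pH. Connexin 43 (Gja1) and connexin 30 (Gjb6) form the gap junctions that join astrocytes into a network, while Aldh1l1, an enzyme of folate metabolism, and Aldoc, the brain form of aldolase in glycolysis, mark astrocytes across regions.

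Kcnj10, Glul and Slc1a3 were the 3 genes of the set that differed between genotypes in more than 1 of the comparisons of KI with WT and that have an entry among the RefSeq promoter windows, and the 250 bases before their start are shown here for reference. RefSeq on build GRCm38.p6 places them at chr1:172340960-172341209 on the plus strand, chr1:153899679-153899928 on the plus strand and chr15:8710808-8711057 on the minus strand. Windows were found for 9 of the 10 genes. Capitals mark matches, on either strand, to the half-site of NFI factors (TTGGC), to the STAT motif (TTCNNNGAA) and to the GC box (GGGCGG).
Kcnj10: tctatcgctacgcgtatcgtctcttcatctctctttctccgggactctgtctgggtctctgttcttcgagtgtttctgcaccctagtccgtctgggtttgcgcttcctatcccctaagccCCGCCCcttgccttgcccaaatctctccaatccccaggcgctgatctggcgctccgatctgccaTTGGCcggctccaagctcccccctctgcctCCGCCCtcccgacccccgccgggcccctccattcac
Glul: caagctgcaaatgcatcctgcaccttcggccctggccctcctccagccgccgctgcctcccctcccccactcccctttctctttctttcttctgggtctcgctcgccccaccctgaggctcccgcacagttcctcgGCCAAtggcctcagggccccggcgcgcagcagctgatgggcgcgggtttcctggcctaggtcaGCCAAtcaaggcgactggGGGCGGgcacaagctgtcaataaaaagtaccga
Slc1a3: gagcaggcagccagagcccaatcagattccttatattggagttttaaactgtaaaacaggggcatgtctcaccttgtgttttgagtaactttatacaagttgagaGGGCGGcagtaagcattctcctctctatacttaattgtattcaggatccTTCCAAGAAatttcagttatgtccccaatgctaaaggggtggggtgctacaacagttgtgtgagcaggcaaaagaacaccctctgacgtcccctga
The NFI half-site was present before 5 of these 9 genes (Aldoc, Glul, Kcnj10, Slc1a2 and Slc4a4). Counted by window, it was in 6 of their 11 windows and in 41.5% of all 32851 windows of the same length. The GC box was found before 6 of the 9, in 6 of the 11 windows and in 32.7% of all windows. The STAT motif was found before Slc1a3 and in 1 of the 2 windows of Aldoc. That is 2 of the 11 windows, beside 7.02% of all windows. Neither Gja1 nor Gjb6 had a match to any of the 3 motifs in these letters. A match describes the sequence and says nothing of binding in these mice.

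The genes lie on 9 chromosomes of GRCm38 and do not neighbour one another, apart from Glul (chr1:153899944-153909723, plus strand, ENSMUSG00000026473) and Kcnj10 (chr1:172341210-172374085, plus strand, ENSMUSG00000044708) on the same chromosome. The glutamate transporters are Slc1a2 (chr2:102658659-102790784, plus strand, ENSMUSG00000005089) and Slc1a3 (chr15:8634124-8710764, minus strand, ENSMUSG00000005360). The water channel gene is Aqp4 (chr18:15389496-15410982, minus strand, ENSMUSG00000024411), and the bicarbonate transporter gene is Slc4a4 (chr5:88886818-89239653, plus strand, ENSMUSG00000060961). The connexin genes are Gja1 (chr10:56377330-56402513, plus strand, ENSMUSG00000050953) and Gjb6 (chr14:57123303-57133611, minus strand, ENSMUSG00000040055). The remaining enzymes are Aldh1l1 (chr6:90486427-90600203, plus strand, ENSMUSG00000030088) and Aldoc (chr11:78322968-78327781, plus strand, ENSMUSG00000017390). All are protein-coding, and reads were assigned to whole genes. Antisense or other transcripts overlap Slc1a2, Slc1a3, Aqp4, Glul and Aldh1l1 in the annotation, and how the authors' counting divided reads between them was not tested.

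In WT tissue the glutamate-handling genes and Aldoc were the most abundant of the 10 when levels were divided by the length of each gene's joined exons. At PWK 28 in cortex, Glul stood at 16853 normalized counts per kilobase, Slc1a2 at 7688, Aldoc at 5837 and Slc1a3 at 2341. Kcnj10 followed at 974 and Gjb6 at 846 per kilobase. The remaining 4 genes lay between 445 for Slc4a4 and 513 for Gja1, also per kilobase. The hippocampus gave the same leading 4 genes in the same order at this age, with 16666 for Glul and 2527 for Slc1a3 per kilobase. Dividing by the longest transcript instead kept these 4 in front but moved Gja1 up to 1353 per kilobase in cortex, so the order below the leading 4 depends on the length used.

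The WT hippocampus differed from the WT cortex in the same direction at each age for 4 of the 10 genes. Aqp4, Gja1 and Slc4a4 were higher in the hippocampus at PWK 1, 7, 14 and 28, and Aldh1l1 was lower at all 4 ages. With a common spread over all 64 libraries the directions were the same, but 6 of these 16 calls were lost, those of Aqp4 at PWK 7 and 28, Gja1 at PWK 7 and 14, and Slc4a4 and Aldh1l1 at PWK 1, with limma adjusted p-values between 0.0516 and 0.19. At PWK 28 Aqp4 read 4293, 4296, 4124 and 4297 in hippocampal and 3408, 2699, 3212 and 3352 in cortical libraries, a log2 difference of 0.43 ± 0.07 (SE), limma adjusted p = 0.000291. Aldh1l1 read 1357, 1384, 1564 and 1427 against 2268, 2220.2, 2008 and 1843 at that age, a log2 difference of -0.54 ± 0.07 (SE), limma adjusted p = 9.27e-05. Neither gene overlapped between the regions. Gja1 was higher in the hippocampus by 0.38 ± 0.06 (log2 difference, limma adjusted p = 0.000242) and Slc4a4 by 0.31 ± 0.04 (limma adjusted p = 0.000128) at PWK 28.

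Other regional differences were seen at some ages and not at others. At PWK 1, 6 of the 10 genes were higher in the hippocampus, beside 16.1% of all genes tested, and 2 were lower, beside 18.6%. Slc1a3 was among the first, at 23729.8, 23967, 23878 and 23128 against 16944, 14999, 14313 and 14389 normalized counts, a log2 difference of 0.65 ± 0.05 (SE), limma adjusted p = 4.56e-06. By PWK 7 the same gene differed by only -0.04 ± 0.04 on the log2 scale (limma adjusted p = 0.401). At that age 3 genes were higher and 4 lower in the hippocampus, among them Slc1a2 and Glul with log2 differences of -0.22 and -0.25, beside 20.4% and 20.4% of all genes. The counts were 3 higher and 1 lower at PWK 14, beside 17.0% and 17.6%, and 3 higher and 2 lower at PWK 28, beside 18.8% and 19.0%. Kcnj10 was lower in the hippocampus at PWK 1, 7 and 28, with log2 differences of -0.42, -0.15 and -0.19. The call at PWK 28 was lost in 5 of the 8 fits that left out 1 library (cortical replicate 1 or 4, or hippocampal replicate 1, 3 or 4), with a limma adjusted p of up to 0.0846, and both adult calls were lost with the common spread (limma adjusted p = 0.429 at PWK 7 and 0.306 at PWK 28) and with total scaling (0.0704 and 0.0576). Because both regions came from the same mice and the fit treated them as separate, these tests do not use the pairing within a mouse.

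Between PWK 1 and PWK 7 most of the set rose in WT mice, and Aqp4 was the only gene of the set that fell in both regions. In cortex 9 of the 10 genes rose, beside 32.5% of all genes tested, and 1 fell, beside 32.7%. Hippocampal libraries showed a rise of 6 genes, beside 30.9%, and a fall of 3 (Aqp4, Slc1a3 and Gja1), beside 30.4%. The median log2 difference over the 10 genes was 0.41 in cortex and 0.49 in hippocampus, where the medians over all genes were 0.01 and 0.01. The largest rises were those of Gjb6, Aldoc, Glul and Slc1a2, in that order in cortex.

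Connexin 30 and connexin 43 differed in this course. Gjb6 went from 339, 400.2, 457 and 356 normalized counts at PWK 1 to 1479, 1692, 1507 and 1421 at PWK 7 in cortex, 3.93 times the earlier mean, with a log2 difference of 1.98 ± 0.09 (SE), limma adjusted p = 4.51e-09. In the hippocampus it went from 439, 346, 422 and 333 to 1082, 1398, 1648 and 1205, 3.46 times, with a log2 difference of 1.78 ± 0.13 (SE), limma adjusted p = 4.44e-07. No library of the younger age reached the older ones. Gja1 changed by only 0.13 ± 0.05 on the log2 scale in cortex (limma adjusted p = 0.0378), a call that was lost in 6 of the 8 fits that left out 1 library, all but those without replicate 1 of PWK 1 or replicate 4 of PWK 7 (limma adjusted p up to 0.116), and fell by 0.19 ± 0.03 in the hippocampus (limma adjusted p = 0.000533). Gjb6 rose further from PWK 7 to PWK 28, by 0.57 ± 0.08 in cortex and 0.99 ± 0.12 in hippocampus on the log2 scale (limma adjusted p = 0.000530 and 0.000728), and ended at 5.83 and 6.83 times its PWK 1 mean.

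Aqp4 was the gene that fell in both regions. It read 5409.7, 5349, 5920.3 and 5924 in cortex at PWK 1 and 3323, 3474, 3101 and 3323 at PWK 7, a log2 difference of -0.77 ± 0.05 (SE), limma adjusted p = 7.47e-08. In the hippocampus it read 8273, 8194, 8729 and 7848 and then 4417, 4093, 4311 and 4487, a log2 difference of -0.93 ± 0.04 (SE), limma adjusted p = 1.17e-08. Each library at PWK 1 lay above each library at PWK 7 in both regions, and WT levels then differed by -0.07 ± 0.07 in cortex and -0.02 ± 0.04 in hippocampus up to PWK 28 (limma adjusted p = 0.531 and 0.719). Its endfoot partner channel gene Kcnj10 rose between PWK 1 and PWK 7, by 0.34 ± 0.08 in cortex and 0.61 ± 0.05 in hippocampus (log2 differences, limma adjusted p = 0.00176 and 1.72e-06).

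Among the glutamate genes, the transporters parted in the hippocampus. Slc1a2 rose there by 0.60 ± 0.05 on the log2 scale from PWK 1 to PWK 7 (limma adjusted p = 1.40e-06) while Slc1a3 fell, from 23729.8, 23967, 23878 and 23128 to 20002, 20370.2, 20943 and 20012, a log2 difference of -0.22 ± 0.03 (SE), limma adjusted p = 0.000117. In cortex both rose, Slc1a2 by 1.05 ± 0.07 and Slc1a3 by 0.47 ± 0.06 (limma adjusted p = 1.40e-07 and 1.56e-05). Glul rose to 2.21 times its PWK 1 mean in cortex and to 1.94 times in hippocampus, with log2 differences of 1.14 ± 0.04 and 0.96 ± 0.04.

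Of the general markers, Aldoc rose most. Aldoc went from 6340.0, 5848, 7070.3 and 6082 to 21787, 23406, 23857 and 23249.8 in cortex, 3.64 times the earlier mean, with a log2 difference of 1.87 ± 0.06 (SE), limma adjusted p = 2.03e-10. In hippocampus it rose to 2.50 times, by 1.32 ± 0.06 on the log2 scale (limma adjusted p = 1.48e-08). Aldh1l1, the other marker enzyme, rose by 0.22 ± 0.06 in cortex (limma adjusted p = 0.00977) and differed by -0.13 ± 0.07 in hippocampus, where it did not pass (limma adjusted p = 0.122). Slc4a4 rose in both regions and then fell again. It read 5649, 5592, 6030.0 and 5624 at PWK 1, 7091, 7963, 7556 and 7183 at PWK 7 and 6135, 6101, 5823 and 5844 at PWK 28 in hippocampus, with log2 differences of 0.38 ± 0.05 and -0.32 ± 0.04 between these ages (limma adjusted p = 2.17e-05 and 0.00148).

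The adult change from PWK 7 to PWK 28 was smaller. In WT cortex 1 gene rose (Gjb6) and 4 fell (Slc1a2, Aldoc, Slc4a4 and Kcnj10), beside 10.9% and 11.4% of all genes tested, and the falls lay between -0.26 for Kcnj10 and -0.32 for Slc1a2 on the log2 scale. In WT hippocampus 3 genes rose (Gjb6, Glul and Gja1) and 2 fell (Slc4a4 and Kcnj10), beside 6.35% and 8.38%. Glul rose there by 0.32 ± 0.04 (log2 difference, limma adjusted p = 0.000554), and Kcnj10 fell by 0.30 ± 0.06 (limma adjusted p = 0.00934). With a common spread over all 64 libraries the Kcnj10 fall was lost in cortex and hippocampus (limma adjusted p = 0.202 and 0.159). The Gja1 rise in hippocampus was lost with that spread too (limma adjusted p = 0.0788).

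**Figure D1:**
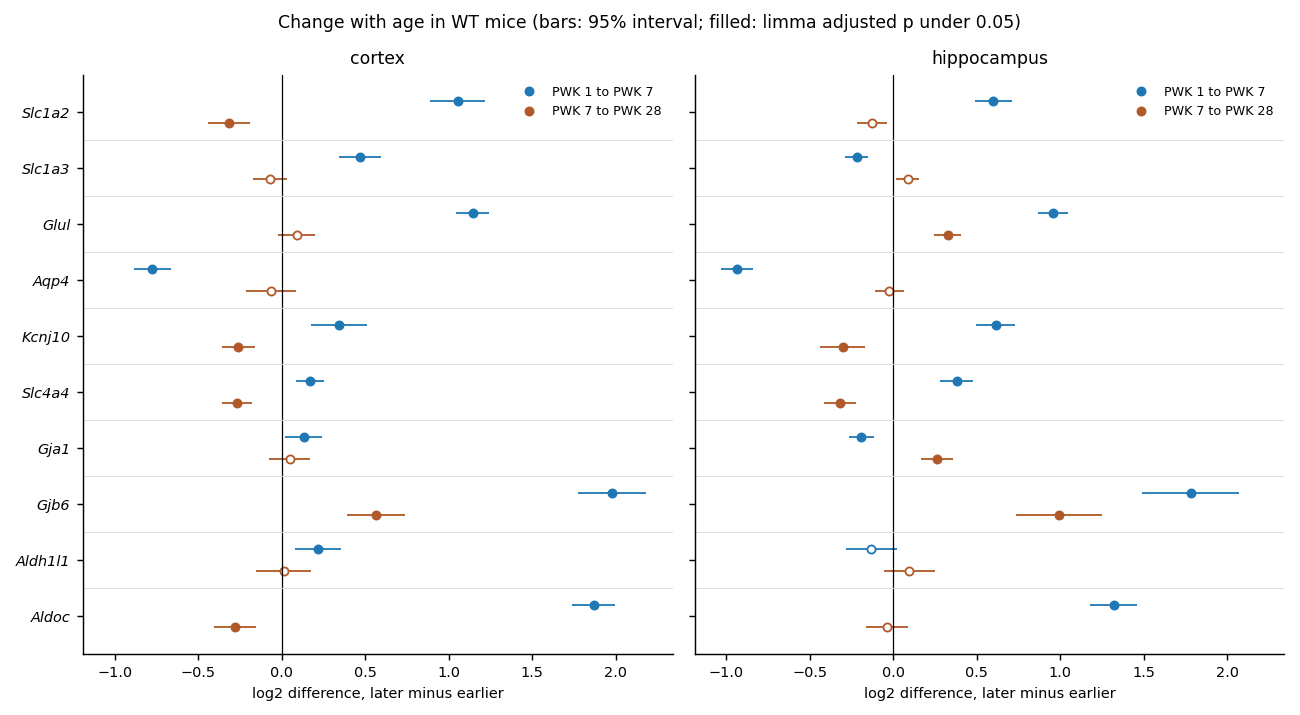
Log2 difference of each gene between ages in WT mice, later minus earlier, with cortex on the left and hippocampus on the right. Points are the fitted differences of 4 against 4 libraries, bars their 95% intervals, and filled points passed the limma test. The blue points of PWK 1 to PWK 7 lie right of 0 for Gjb6, Aldoc, Glul and Slc1a2 and left of 0 for Aqp4 in both regions.

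At PWK 1 and PWK 7 none of the 10 genes was called between KI and WT in either region by limma. Of all genes, 0.00546% and 0.00545% were called in either direction in cortex at these ages, and 0.0109% and 0.0218% in hippocampus. An unadjusted p under 0.05 was reached in cortex by 2 of the 10 at PWK 1, beside 5.27% of all genes, and by 3 at PWK 7, beside 8.05%. In hippocampus 1 of the 10 reached it at PWK 1, beside 5.46%, and 2 at PWK 7, beside 6.22%.

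Some genes of the set were nonetheless fully separated by genotype at these ages, with small differences. In hippocampus at PWK 7 these were 3 of the 10, Gja1 above and Glul and Slc1a2 below, where 3.87% of all genes did not overlap. Slc1a2 read 103491, 96415, 102719 and 96022 in KI and 104444, 110022, 110367 and 105625 in WT libraries there, a log2 difference of -0.11 ± 0.05 (SE), limma adjusted p = 0.797. Glul read 41249, 42661, 40955 and 40533 in KI and 43104, 44830.2, 45402 and 43502 in WT libraries, a log2 difference of -0.10 ± 0.04 (SE), limma adjusted p = 0.797. The KI values of both lay just below the WT values. Gja1 ran from 5910.3 to 6479.8 in KI and from 5567 to 5861 in WT libraries, a log2 difference of 0.09 ± 0.05 (SE), limma adjusted p = 0.834. In cortex at PWK 1, 1 of the 10 did not overlap, Slc4a4, which was lower in KI by a log2 difference of -0.16 ± 0.05 (SE), limma adjusted p = 0.908, where 3.15% of all genes did not overlap. The count was 0 in cortex at PWK 7 and in hippocampus at PWK 1, beside 4.62% and 3.26%. Aqp4 and Kcnj10, which differed at later ages, had hippocampal 95% intervals of the log2 difference at PWK 7 that spanned -0.09 to 0.15 and -0.09 to 0.15. The plot of each library by age shows the KI and WT points of these ages side by side.

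**Figure D2:**
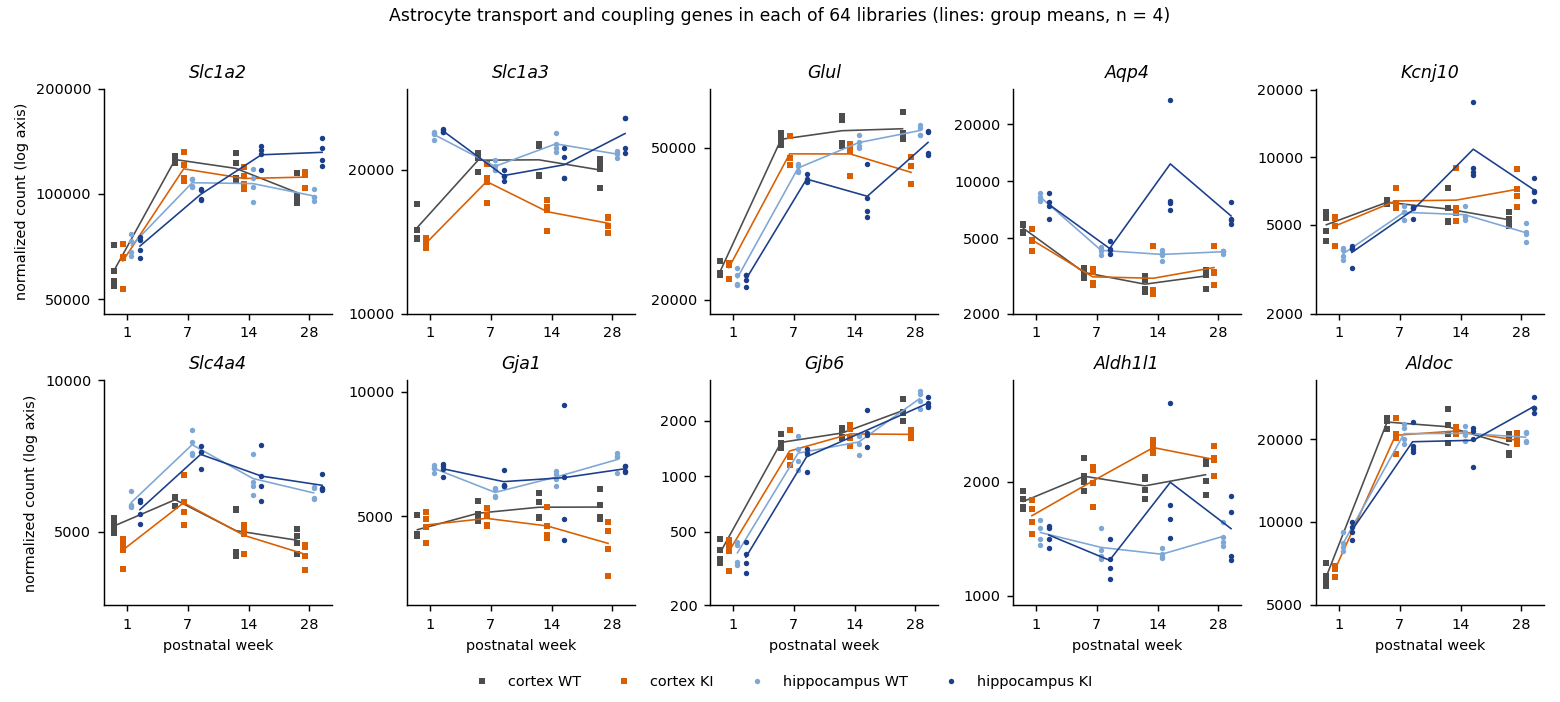
Normalized counts of the 10 genes in each of the 64 libraries, on log axes that differ between panels, by postnatal week. Squares are cortex and circles hippocampus, colours separate WT and KI, and lines join the group means of 4 libraries. In the Aqp4 and Kcnj10 panels the hippocampal KI points lie above the WT points at PWK 14 and 28 and overlap them at PWK 1 and 7.

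At PWK 14 the hippocampus of KI mice had more Aqp4 and Kcnj10 and less Glul than that of WT mice. Of the 10 genes, 2 rose, beside 7.64% of all genes tested, and 1 fell, beside 7.95%. The median log2 difference was 0.11 over the 10 genes and 0.01 over all genes. The genotypes were fully separated in 4 of the 10 genes, Aqp4, Kcnj10 and Aldh1l1 above and Glul below, where 23.8% of all genes did not overlap.

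Aqp4 read 26864, 7666, 7099 and 7849 normalized counts in the KI libraries and 4199, 4101, 3806 and 4358 in the WT libraries of the PWK 14 hippocampus. KI replicate 1 was over 3 times each other KI library, and those 3 were in turn above each WT library. The KI mean was 3.01 times the WT mean, with a log2 difference of 1.33 ± 0.37 (SE), limma adjusted p = 0.0376. Without KI replicate 1 the log2 difference was 0.87 ± 0.06 (SE), with a limma adjusted p of 8.77e-05. Leaving out any 1 of the 4 WT libraries instead ended the call, with an adjusted p of up to 0.0919.

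Kcnj10 showed the same arrangement, at 17603, 8932, 8323 and 8572 in KI and 5405, 5236, 5483 and 6035 in WT libraries. The KI mean was 1.96 times the WT mean, a log2 difference of 0.90 ± 0.21 (SE), limma adjusted p = 0.0218. Without KI replicate 1 it was 0.64 ± 0.06 (SE), limma adjusted p = 0.000330, and the call was lost without WT replicate 1 or 2.

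Glul moved the other way. It read 32823, 34058, 36858 and 45375 in KI and 50521, 49749.7, 51849.8 and 53956 in WT libraries, all 4 KI values being below all 4 WT values, with a log2 difference of -0.48 ± 0.11 (SE), limma adjusted p = 0.0164. Without KI replicate 1 this was -0.42 ± 0.10 (SE), limma adjusted p = 0.0159, while leaving out WT replicate 1 or 4 gave an adjusted p of up to 0.0518. The transporters that supply its substrate did not pass at this age, Slc1a2 with a log2 difference of 0.28 ± 0.11 (limma adjusted p = 0.115) and Slc1a3 with -0.15 ± 0.07 (limma adjusted p = 0.184). Slc1a2 was called higher with a common spread over all 64 libraries (limma adjusted p = 0.00427), total scaling (0.0453) and sample weights (0.031). Slc1a3 was called lower with the common spread (limma adjusted p = 0.0357).

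Aldh1l1 read 3216, 1421, 1597 and 1731 in KI and 1266, 1258, 1336 and 1290.3 in WT libraries and did not pass with all 8 libraries, with a log2 difference of 0.55 ± 0.21 (SE), limma adjusted p = 0.112. Without KI replicate 1 the 3 remaining KI libraries gave 0.29 ± 0.07 (SE), limma adjusted p = 0.0250. Slc1a2 also passed in that fit, with 0.32 ± 0.09 and an adjusted p of 0.0359, so that 4 genes were higher and 1 lower, beside 8.98% and 8.43% of all genes in the same fit. Gja1 ran from 4381 to 9274 in KI against 5917 to 6447 in WT libraries and overlapped, as did Gjb6, Slc4a4 and Aldoc. KI replicate 1 held the highest values of Gja1, Gjb6 and Slc4a4 and the lowest of Aldoc in its group.

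At PWK 28 the hippocampus of KI mice had more of 4 of the 10 transcripts. Kcnj10, Aqp4, Slc1a2 and Aldoc rose, beside 8.92% of all genes tested, and 0 fell, beside 6.91%. An unadjusted p under 0.05 was reached by 5 of the 10, all 5 higher, beside 30.4% of all genes in either direction. The 4 KI libraries lay above the 4 WT libraries for each of the 4 called genes, and 21.5% of all genes did not overlap. The median log2 difference was 0.09 over the 10 genes and 0.0037 over all genes. Each of the 4 calls held without any 1 library.

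The endfoot channels led again. Aqp4 read 7800.4, 5944, 6242 and 6297 in KI and 4293, 4296, 4124 and 4297 in WT libraries, 1.55 times the WT mean, with a log2 difference of 0.62 ± 0.07 (SE), limma adjusted p = 0.000376. Kcnj10 read 8101, 6396, 7084 and 7016 in KI and 4186, 5091, 4523 and 4633 in WT libraries, 1.55 times, with a log2 difference of 0.63 ± 0.08 (SE), limma adjusted p = 0.000381. In both genes the lowest KI library was well above the highest WT library, and no KI library stood as far apart as replicate 1 had at PWK 14.

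Slc1a2 read 125080.1, 135568, 120293 and 144927 in KI and 97916, 103544, 97995 and 95224 in WT libraries, 1.33 times the WT mean, with a log2 difference of 0.41 ± 0.06 (SE), limma adjusted p = 0.00130. Aldoc read 24854, 25965, 25884 and 28481 in KI and 19458, 21163, 21061 and 19638 in WT libraries, 1.29 times, with a log2 difference of 0.37 ± 0.05 (SE), limma adjusted p = 0.000896. Both genotypes varied little and did not overlap in either gene. Glul, called lower at PWK 14, had a log2 difference of -0.11 ± 0.06 here (limma adjusted p = 0.231), with KI libraries from 47914 to 55299 and WT libraries from 54064 to 57121. Slc1a3 had 0.14 ± 0.06 (limma adjusted p = 0.136), and Gja1, Gjb6, Slc4a4 and Aldh1l1 lay between -0.08 and 0.05 on the log2 scale without passing.

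The cortex gave another picture, in which Slc1a3 was lower in KI mice at both late ages. At PWK 14, 1 of the 10 genes rose, beside 2.48% of all genes tested, and 1 fell, beside 2.70%. The 2 called genes were also the only 2 of the set without overlap between genotypes, where 14.2% of all genes did not overlap, and the median log2 difference was -0.03 over the 10 genes and -0.0018 over all. Slc1a3 read 14878, 16474, 16738 and 17289 in KI and 19486, 19402, 22433 and 22614 in WT libraries, with a log2 difference of -0.36 ± 0.07 (SE), limma adjusted p = 0.0203. The highest KI library was below the lowest WT library, but the adjusted p rose to at most 0.0651 without KI replicate 2 or without WT replicate 3 or 4. Aldh1l1 read 2476, 2400.2, 2381 and 2576 in KI and 1904, 1798, 2037 and 2056 in WT libraries, with a log2 difference of 0.34 ± 0.06 (SE), limma adjusted p = 0.0121. The Aldh1l1 call held without any 1 library and was lost with the common spread over all 64 libraries (limma adjusted p = 0.069). Without KI replicate 1 both calls held, at a log2 difference of -0.31 ± 0.07 for Slc1a3 (limma adjusted p = 0.0287) and 0.33 ± 0.06 for Aldh1l1 (limma adjusted p = 0.0158). Aqp4 and Kcnj10 overlapped between genotypes here, and KI replicate 1 had the highest value of both, 4536 and 8956, against at most 2685 and 5949 in the other KI libraries.

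At PWK 28 in cortex 5 of the 10 genes were called, beside 22.2% of all genes tested, of which 1 rose, beside 12.2% of all genes. Kcnj10 rose and Slc1a3, Glul, Gjb6 and Gja1 fell, and none of these 5 overlapped between genotypes, where 25.8% of all genes did not overlap. The median log2 difference was -0.02 over the 10 genes and -0.0034 over all genes.

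The glutamate genes Slc1a3 and Glul fell together. Slc1a3 read 15295, 15908, 15887 and 14770.1 in KI and 21016, 18359.8, 20045 and 20534 in WT libraries, 0.774 times the WT mean, with a log2 difference of -0.37 ± 0.06 (SE), limma adjusted p = 0.00158. Glul read 40168, 47291, 44735 and 40038 in KI and 62034, 54741, 54474 and 52757 in WT libraries, 0.769 times, with a log2 difference of -0.38 ± 0.07 (SE), limma adjusted p = 0.00548. The KI libraries were lower throughout for both. Slc1a2, the more abundant transporter gene per kilobase, overlapped, with a log2 difference of 0.15 ± 0.07 (limma adjusted p = 0.171, 95% interval from -0.01 to 0.31).

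Both connexin genes were lower. Gjb6 read 1646, 1782, 1695 and 1618 in KI and 2622, 2240.2, 2206 and 1984 in WT libraries, 0.745 times the WT mean, with a log2 difference of -0.42 ± 0.08 (SE), limma adjusted p = 0.00559. Gja1 read 4159.6, 4836, 4616 and 3578 in KI and 5805, 4991, 5324 and 4925 in WT libraries, with a log2 difference of -0.30 ± 0.09 (SE), limma adjusted p = 0.0430. The Gja1 groups were separated by a narrow gap, and its call was lost in 7 of the 8 fits that left out 1 library, all but the one without KI replicate 2, with an adjusted p of up to 0.118. The Gjb6 call held in all 8.

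Kcnj10 was the one gene of the set that rose in the PWK 28 cortex. It read 8821, 5974, 7235 and 6719.6 in KI and 5698, 4929, 5136 and 5293 in WT libraries, 1.37 times the WT mean, with a log2 difference of 0.44 ± 0.10 (SE), limma adjusted p = 0.0141. KI replicate 1 was the highest, the other 3 KI libraries also exceeded each WT library, and the call held without any 1 library. Its endfoot partner Aqp4 read 4545, 2853, 3298 and 3345 against 3408, 2699, 3212 and 3352, with KI replicate 1 again the highest, and did not pass at a log2 difference of 0.13 ± 0.13 (limma adjusted p = 0.498).

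**Figure D3:**
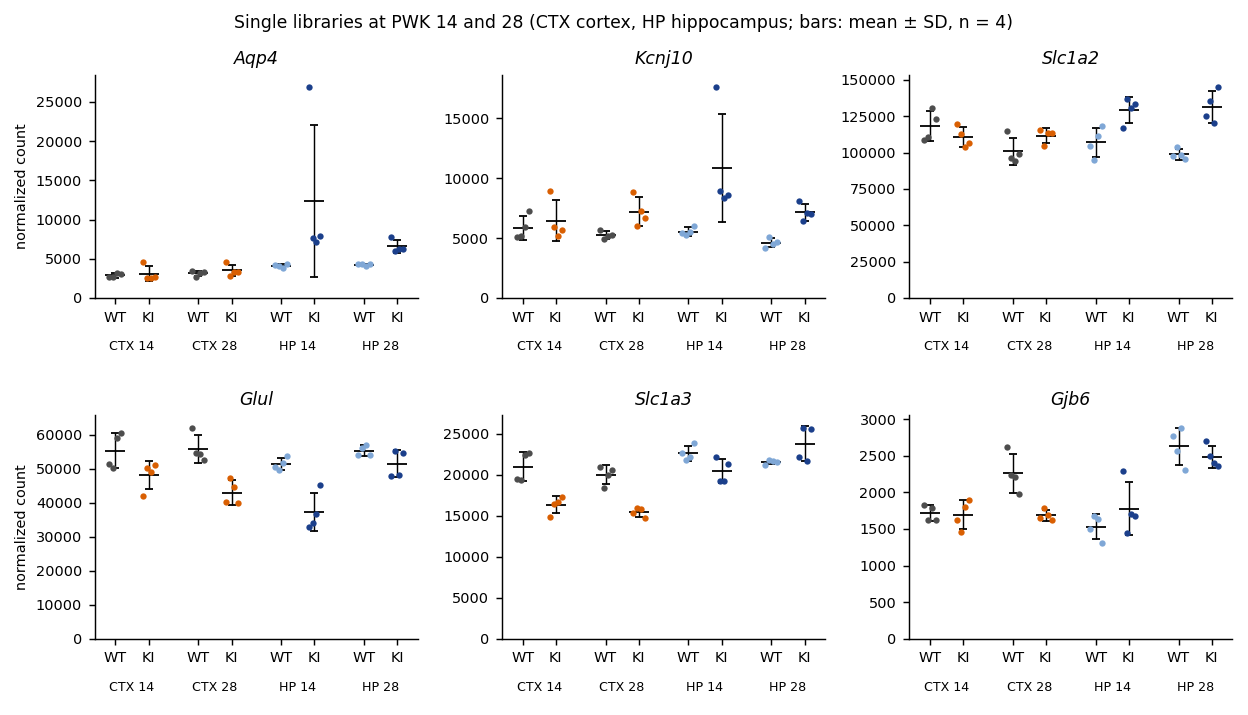
Normalized counts of Aqp4, Kcnj10, Slc1a2, Glul, Slc1a3 and Gjb6 in single libraries at PWK 14 and 28, on linear axes from 0, with WT and KI side by side for each region and age and bars giving the mean ± SD of 4 libraries. In the hippocampus at PWK 14, KI replicate 1 reads 26864 for Aqp4 and 17603 for Kcnj10, far above the other 3 KI libraries, which still lie above the WT libraries.

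The differences between regions and between ages were tested directly as interactions of genotype with region or age. At PWK 28 the genotype difference of Slc1a3 was higher in hippocampus than in cortex by 0.51 ± 0.08 on the log2 scale (limma adjusted p = 0.00213), 1 gene of the 10, beside 4.57% of all genes called in either direction, and 7 of the 10 had an unadjusted p under 0.05, beside 18.6% of all genes. This call held in all 16 fits that left out 1 library. For Aldoc the region difference was 0.31 ± 0.09 and its adjusted p 0.0501 by limma, just over the threshold. For Kcnj10, higher in KI mice in both regions at PWK 28, it was 0.20 ± 0.14, with a 95% interval from -0.10 to 0.49 (limma adjusted p = 0.497). For Gjb6, Glul and Gja1, which fell in cortex and did not pass in hippocampus, the region difference was not called, with limma adjusted p-values of 0.0988, 0.115 and 0.273.

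At PWK 14 none of the 10 genes was called for the region difference by limma in the fit that treated the libraries as separate, where 2.85% of all genes were called. An unadjusted p under 0.05 was reached by 3 of the 10 and by 17.7% of all genes. The difference for Aqp4 was 1.27 ± 0.44 on the log2 scale (limma adjusted p = 0.132). With KI replicate 1 left out in both regions, Aqp4, Kcnj10 and Slc1a2 were called, Aqp4 at a difference of 1.01 and an adjusted p of 0.000122, beside 5.60% of all genes in that fit, which was added after seeing the data. None of the 10 was called at PWK 1 or at PWK 7, where 0% and 0.00543% of all genes were called. At PWK 1, 1 of the 10 had an unadjusted p under 0.05, beside 3.63% of all genes. At PWK 7 that count was 0, beside 5.81%.

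From PWK 7 to PWK 14 the genotype difference in hippocampus changed for 4 genes, beside 10.3% of all genes called in either direction. It rose for Aqp4 by 1.30 ± 0.40, for Kcnj10 by 0.87 ± 0.24 and for Slc1a2 by 0.39 ± 0.11, and fell for Glul by 0.38 ± 0.11 (log2 differences, limma adjusted p = 0.0495, 0.0277, 0.0315 and 0.0394). Without KI replicate 1 of PWK 14, 6 genes were called, beside 11.3% of all genes in that fit. Leaving out WT replicate 1 or 2 of PWK 14, or KI replicate 4 or WT replicate 1, 3 or 4 of PWK 7, left 0 called. The Aqp4 call was lost in every fit that left out a WT library of PWK 14 or a library of PWK 7 (limma adjusted p up to 0.0864). The Glul call was lost in the same fits and without KI replicate 2 or 3 of PWK 14 (up to 0.0763). The Slc1a2 call was lost in each fit that left out a WT library of PWK 7 and in some others (up to 0.0668). Total scaling (0.0609) and GC content and length correction (0.0558) also ended the Aqp4 call. In the cortex 0 of the 10 genes were called for this change by limma, beside 3.18% of all genes. There 2 of the 10 had an unadjusted p under 0.05, beside 16.7% of all genes. From PWK 14 to PWK 28 the change was called for 0 of the 10 in cortex and for 0 in hippocampus by limma. Of all genes, 0% and 0% were called. An unadjusted p under 0.05 was reached there by 2 and 3 of the 10, beside 15.1% and 12.4% of all genes. Glul, called in hippocampus at PWK 14 and not at PWK 28, had a change of 0.37 ± 0.12 between these ages that did not pass (limma adjusted p = 0.224). Cortex and hippocampus came from the same mice, and the tests between regions treated their libraries as separate.

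**Figure D4:**
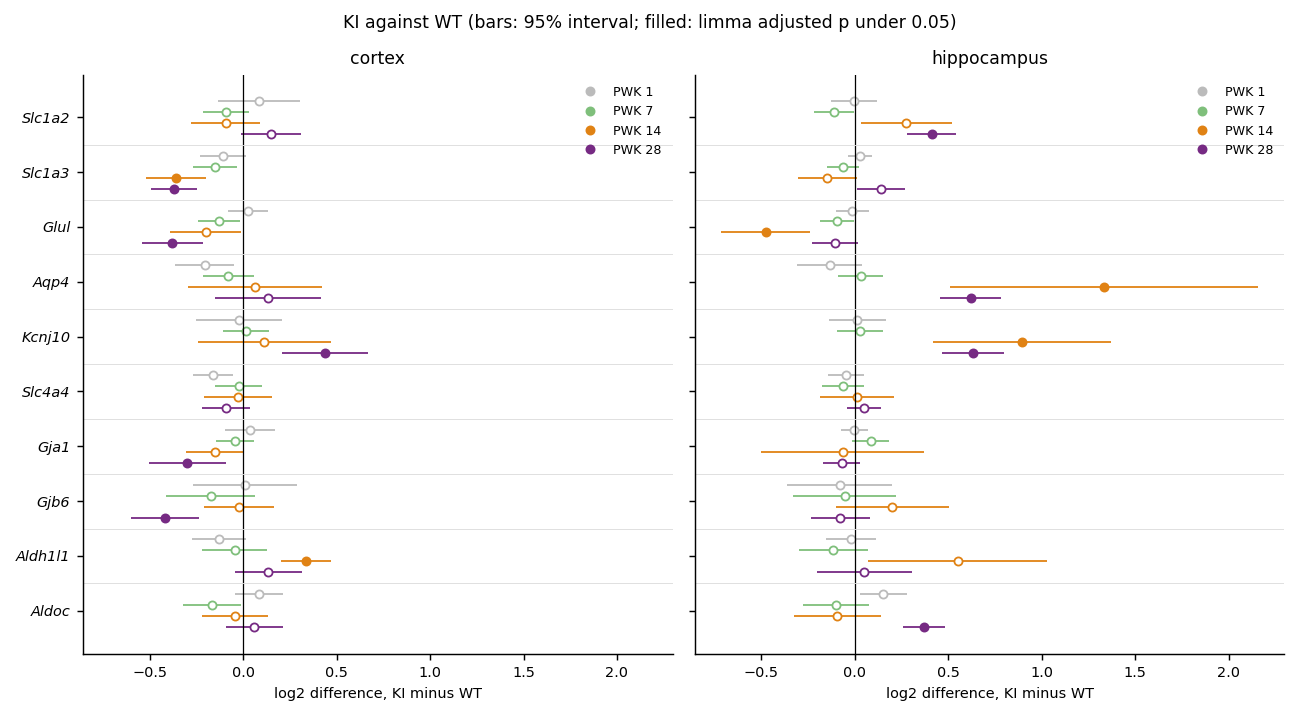
Log2 difference of each gene between KI and WT, at 4 ages in cortex (left) and hippocampus (right). Points are the fitted differences of 4 against 4 libraries, bars their 95% intervals, and filled points passed the limma test. Filled points appear at PWK 14 and 28 only, to the right of 0 for Kcnj10 in 3 of the 4 late comparisons and to the left for Slc1a3 in cortex.

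Partner genes of the same pathways were counted beside all genes tested, as were the further lists below. In hippocampus 15.6% of all genes were called in either direction at PWK 14 and 15.8% at PWK 28. In cortex these shares were 5.18% and 22.2%. Of 12 other genes of the glutamate-glutamine cycle, 3 rose in the KI hippocampus at PWK 14, where a further 3 were lower at an unadjusted p under 0.05 without being called, and 4 rose and 1 fell at PWK 28. Without KI replicate 1 of PWK 14, 4 rose and 1 fell in hippocampus at that age, beside 8.98% and 8.43% of all genes in that fit. The glutamine transporter genes Slc38a5 and Slc38a3 led at both ages, Slc38a3 with log2 differences of 0.81 ± 0.19 and 0.41 ± 0.12 (limma adjusted p = 0.0194 and 0.0380). In cortex 1 fell at PWK 14 (Slc25a18), and 0 were called without KI replicate 1. At PWK 28 in cortex 2 rose and 1 fell, beside 22.2% of all genes called. This count does not set the list apart from all genes. The neuronal vesicular transporter gene Slc17a7 rose there by 0.89 ± 0.10 (limma adjusted p = 0.000367). Among 6 genes of GABA and glycine uptake, 4 fell in hippocampus at PWK 14, and 3 without KI replicate 1. One of the 4 was the GABA transporter gene Slc6a11 with -0.63 ± 0.14 (limma adjusted p = 0.0148). Slc6a11 was lower at PWK 28 too, with -0.35 ± 0.05 in hippocampus and -0.34 ± 0.11 in cortex (limma adjusted p = 0.00113 and 0.0428).

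Of 17 further genes of endfeet and ion transport, 5 rose in hippocampus at PWK 28, led by the sodium pump subunit gene Atp1b2 with 0.49 ± 0.04, the potassium channel gene Kcnk1 with 0.40 ± 0.07 and the adhesion gene Hepacam with 0.31 ± 0.06 (log2 differences, limma adjusted p = 6.51e-05, 0.00304 and 0.00449). At PWK 14 in hippocampus 2 rose and 2 fell, 3 and 3 without KI replicate 1. The cortex had 0 calls by limma at PWK 14, with 7 genes at an unadjusted p under 0.05, beside 20.6% of all genes. At PWK 28 it had 2 calls in each direction, beside 22.2% of all genes called in either direction. The count at PWK 28 does not set these genes apart from all genes. Of 11 other connexin and pannexin genes measured, Gjc3, an oligodendrocyte connexin, fell at PWK 28 in cortex by 0.76 ± 0.15 and in hippocampus by 0.29 ± 0.07 (limma adjusted p = 0.00631 and 0.0204). The pannexin gene Panx1 rose in both, by 0.88 ± 0.19 and 0.28 ± 0.08 (limma adjusted p = 0.00953 and 0.0324).

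Of 20 other general astrocyte markers, 12 rose and 1 fell in the KI hippocampus at PWK 28, beside 15.8% of all genes called. Their median log2 difference there was 0.23. In cortex at that age 2 rose and 3 fell, beside 22.2% of all genes called, with a median of 0.03. The cortical count does not set the list apart from all genes. Fabp7 was the marker that fell in hippocampus. At PWK 14, 5 rose and 1 fell in hippocampus, 4 and 1 without KI replicate 1. In cortex at that age 1 fell, again Slc25a18, which both lists hold, and 0 were called without KI replicate 1.

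Genes of reactive astrocytes and of other cells changed in the same comparisons. Gfap, the intermediate filament gene of reactive astrocytes, read 131431, 40059, 45879.7 and 47169 in KI and 8842, 8972, 7502 and 9231 in WT hippocampus at PWK 14. It read 44711, 32067, 35273 and 37929 against 8803, 9349.5, 9894 and 9316 at PWK 28. The KI libraries were above the WT libraries throughout, and the library highest for Gfap at PWK 14, KI replicate 1, was the one highest for Aqp4 and Kcnj10. Of 16 reactive genes, 11 rose in hippocampus at PWK 14, 13 without KI replicate 1, and 10 at PWK 28, with none lower at an unadjusted p under 0.05. In cortex 4 rose at each of these ages. Their summed level ran from 51475 to 210773 in KI and from 11681 to 13344 in WT hippocampus at PWK 14, and from 41121 to 56227 and 13261 to 14349 at PWK 28.

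Of 10 microglial markers, 7 rose in hippocampus at PWK 28, led by Trem2, where their sum ran from 15379 to 18482 in KI and from 12743 to 13608 in WT libraries. At PWK 14 in hippocampus 0 passed by limma with all libraries, 2 had an unadjusted p under 0.05 and 2 rose without KI replicate 1, and the sum ran from 12169.7 to 38137 in KI and from 11082 to 13292 in WT. In the cortex at PWK 28 only Aif1 rose, and the sums ran from 13029.9 to 13817 in KI and from 12458 to 14381 in WT. Of 8 leptomeningeal fibroblast markers, 3 rose and 3 fell in cortex at PWK 28 and 3 rose and 1 fell at PWK 14, with sums at PWK 28 from 3030.4 to 3830.4 in KI and from 3698 to 5663 in WT. Markers of oligodendrocytes, with sums from 90134 to 118216 in KI and 108721 to 163720.0 in WT cortex at PWK 28, gave 1 fall there (Ermn). The sum of the 11 neuronal markers did not overlap there, from 331865 to 345221 in KI and from 285495 to 315062 in WT. In hippocampus at PWK 28 the neuronal sums overlapped, from 245763 to 262746 in KI and from 238094 to 255290 in WT. Of 10 endothelial and pericyte markers, 2 fell in cortex at PWK 14 (Cldn5 and Flt1) and 1 rose at PWK 28 (Slc2a1), while in hippocampus 1 fell at PWK 14 (Vtn) and 2 rose at PWK 28 (Slc2a1 and Rgs5). Without KI replicate 1 at PWK 14, 4 of them fell in cortex, beside 2.51% of all genes in that fit, and 1 rose and 1 fell in hippocampus. No marker of these lists was at 0 in all libraries of a group, and the part of cell composition in the differences of the 10 genes was not tested.

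Over the 16 group means, the 10 genes did not run together as a whole. Aldoc and Slc1a2 were the most alike, with a Pearson r of 0.963 over the 16 means, and Glul and Gjb6 followed at 0.950. Aldh1l1 and Gja1 ran against each other, at -0.755. Of 12819 genes compared outside the set, the closest to Slc1a2 was Acsbg1 (r = 0.983), to Aldoc Csrp1 (0.988), to Glul Lin52 (0.991), to Gjb6 Gm19439 (0.988) and to Aqp4 Palld (0.974). Kcnj10 had its closest match in Hpgd (0.933) and Slc1a3 in Celsr1 (0.888), the lowest best match of the set. These points share libraries, ages and regions, so the values describe the likeness of courses and carry no test.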

How the data were processed

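The authors estimated transcript abundance with Salmon on GRCm38 and scaled gene counts with DESeq2. The submitters' processing notes name Salmon 0.11.2, DESeq2 1.19.11 and R 3.6.0, and the sources used here differ on these versions and on the library kit. The deposited unit is a normalized signal, with no raw counts. Whole reads were not recoverable, so the depth of a library is unknown and precision was judged from the 4 libraries of a group. At the best step found for each library, 27.8% to 60.0% of low values lay within 0.1 steps of a whole multiple of that step. Chance gives 20% for a step fixed in advance, and more for the best of many steps.

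Gene names and positions came from GENCODE, which matched 18420 of 18432 identifiers. Differences were tested with limma 3.58.1 in R 4.3.3 on log2(value + 1), which understates changes of low values, for genes with a mean of at least 1 in the libraries fitted. The test was checked on simulated data. List counts and the region difference without KI replicate 1 at PWK 14 were added after seeing the data. Genotype, WT age and WT region comparisons used 8 libraries, and interactions 16. Alternatives were a common spread over all 64 libraries, a pseudocount of 10, no filter or a filter at 50, scaling by totals, correction for GC content and length, a replicate block, sample weights, and leaving out each library.

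Replicate numbers were not taken as pairs. The members, the gene lists and the tests were chosen with earlier results of these data known. The text names the 10 members throughout, Gfap, up to 3 called genes per list and direction, and the closest gene in course. The values of 1 gene of these lists are not reported here.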

Additional observations from a re-analysis of the deposited data

Results flagged for a closer look

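In 10 of 160 sets of 4 libraries (10 genes in 16 groups), the highest or lowest library was set apart from the other 3 by Dixon's test, where chance alone gives about 1 in 20. Aqp4 was set apart in KI replicate 1 at PWK 14 in cortex (4536 normalized counts, others 2535 to 2685) and in hippocampus (26864, others 7099 to 7849), and Kcnj10 in the same hippocampal library (17603, others 8323 to 8932). Aqp4 also had a low WT replicate 3 in the PWK 28 hippocampus (4124, others 4293 to 4297). Kcnj10 had a low KI replicate 2 in hippocampus at PWK 1 (3199.6) and a low KI replicate 4 at PWK 7 (5312). Gja1 had a high WT replicate 1 in cortex at PWK 1 (5030.2) and a high KI replicate 1 in hippocampus at PWK 7 (6479.8). Slc4a4 had a high WT replicate 3 in hippocampus at PWK 1 (6030.0) and a high KI replicate 1 in hippocampus at PWK 28 (6515).

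The genotype difference itself differed between groups in 5 cases by limma's interaction test. For Slc1a3 it was 0.51 higher (log2) in hippocampus than in cortex at PWK 28. In hippocampus it was higher at PWK 14 than at PWK 7 for Aqp4 (1.30), Kcnj10 (0.87) and Slc1a2 (0.39) and lower for Glul (-0.38). Each of these hippocampal calls was lost in some of the fits that left out a single library.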

How the results depend on the processing

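No direction was reversed for a called gene. Of 4490 gene values under an alternative, 4321 kept their side of the threshold, 102 lost it and 67 gained it. With a common spread over all 64 libraries, the number of the 10 genes called was 6 for KI against WT in hippocampus at PWK 14 (3 as reported), 3 for WT hippocampus from PWK 7 to 28 (5), 4 and 3 for WT hippocampus against cortex at PWK 7 and 28 (7 and 5), 3 for the region difference in the genotype effect at PWK 14 (0) and 3 for its change from PWK 14 to 28 in hippocampus (0). The region difference at PWK 14 gave 2 genes with a replicate block, 3 with sample weights and 3 without KI replicate 1 in both regions, an alternative chosen after seeing the data. At PWK 28 it gave 2 (1 as reported) with a filter at 50, total scaling, GC content and length correction or sample weights, and 3 with the replicate block. The replicate block called Aqp4 (limma adjusted p = 0.014) and Kcnj10 (0.00532) at PWK 14 and added Aqp4 (0.00965) and Gjb6 (0.0303) to Slc1a3 at PWK 28. The labels do not say whether equal numbers mark the same mouse, and the number was not taken as a pairing: cortical and hippocampal libraries of equal number deviated from their group means with a mean correlation of 0.14 (17 of 32 over 0.1), against -0.046 for unequal numbers. The block moved no other count of calls by over 1.5 times. The change from PWK 7 to 14 in cortex gave 1 gene (0) with total scaling and with GC content and length correction. In cortex at PWK 14 the common spread lost Aldh1l1 (0.069) and gained Glul (0.0469), leaving the count at 2. Apart from the fits without KI replicate 1, these counts stand without the share of all genes called in the same fit. They do not show whether the 10 genes shifted more than other genes. The cause of these shifts was not tested.

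Leaving out 1 library gave between 0 and 5 called genes for KI against WT in hippocampus at PWK 14 (0 without WT replicate 1, 5 without KI replicate 1), between 1 and 2 in cortex at PWK 14, 4 and 5 in cortex at PWK 28, and 4 throughout in hippocampus at PWK 28. PWK 1 and 7 gave 0 throughout. For WT from PWK 1 to 7 it gave 9 to 10 in both regions, and from PWK 7 to 28 it gave 5 in cortex and 5 to 6 in hippocampus. For WT regions it gave 7 to 8 at PWK 1, 7 to 9 at PWK 7, 4 at PWK 14 and 4 to 6 at PWK 28. For the interactions it gave 0 to 1 (region, PWK 14), 1 to 2 (region, PWK 28), 0 to 1 (PWK 7 to 14, cortex), 0 to 6 (PWK 7 to 14, hippocampus), 0 to 1 (PWK 14 to 28, hippocampus) and 0 otherwise. Most of these counts, too, are given without the share of all genes called in the same fit. Read depth was not recoverable, so it could not be set against these spreads.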
